A study of Homo sapiens with 15 samples.

Results

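The cytosolic ribosomal protein genes encode the proteins of the 80S ribosome of the cytoplasm and are among the most abundant mRNAs of a growing cell. They were chosen here by symbol alone: RPL or RPS, a number and at most one of the endings A, X, L or AL, together with RPLP0, RPLP1, RPLP2 and RPSA. This rule was met by 79 of the 12261 genes listed, 48 of the large subunit and 31 of the small subunit. The mitochondrial ribosomal proteins, the S6 kinases and pseudogenes were not among them.

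RNA came from HEK-293 Trex, an established human embryonic kidney line in which a transgene is switched on by doxycycline. There were 5 groups of 3 libraries: total RNA of cells expressing GFP, CLIP-tagged UPF1 isoform 1 (UPF1-1) or CLIP-tagged UPF1 isoform 2 (UPF1-2), and the RNA that co-purified with each tagged UPF1 isoform (IP). All cells, the GFP controls included, carried a transgene and received 200 ng/mL doxycycline, and the labels give no deletion of the cells' own UPF1 gene. Each construct was in its own line, so that an effect of the protein and a difference between the lines cannot be told apart, and there was no GFP purification to serve as a background for the IPs. Replicates carry numbers 1 to 3, and nothing in the labels says whether they came from separate cultures, so the p-values below measure the spread between these libraries only.

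UPF1 is an RNA helicase that binds RNA with little preference for sequence and is required for nonsense-mediated decay, the pathway that destroys mRNAs with a premature stop codon. Its isoforms differ in the length of a regulatory loop in the helicase core, isoform 1 having the longer loop. Most ribosomal protein mRNAs are short, heavily translated and begin with a cytosine followed by a run of pyrimidines, the 5′ terminal oligopyrimidine (TOP) motif, through which LARP1 and the kinase mTOR control their translation. The samples compare what each isoform binds and the transcriptome of the cells that express it.

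UPF1 itself was measured first, as a check of the labels. It stood at 3.24, 3.80 and 8.57 TPM in the GFP libraries, TPM being an abundance scaled by transcript length and by the sum over the library. The UPF1-1 cells had 106, 94.5 and 186 TPM and the UPF1-2 cells 68.9, 72.7 and 171 TPM. The purified RNA had 2660, 2255 and 4689 TPM with UPF1-1 and 2213, 2064 and 5259 TPM with UPF1-2. The induced gene was therefore higher in each UPF1 library than in any GFP library.

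The 5′ ends are shown first because the TOP motif is what most of these mRNAs share that the rule did not use. RefSeq (GRCh38.p14) promoter entries matched 62 of the 79 genes by symbol. Of the 62, 45 (72.6%) began with a C and at least 4 more C or T at the annotated start, against 1404 of 27305 genes with an entry (5.14%), 7.21% of the 8269 other tested genes with an entry and 5 of 65 mitochondrial ribosomal protein genes (7.69%). Large and small subunit genes had it about equally, 28 of 38 and 17 of 24. The windows below run from 10 bases before the start to 20 bases from it on the coding strand, with the pyrimidine run that begins with C at the start in capitals. The first 3 belong to genes with the lowest recovery in the IPs and the last 4 to genes with the highest, so that they can be read beside the values that follow.
RPS16 (chr19:39435930-39435959, minus strand): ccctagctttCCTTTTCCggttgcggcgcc
RPL28 (chr19:55385922-55385951, plus strand): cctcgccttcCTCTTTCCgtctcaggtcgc
RPS29 (chr14:49598691-49598720, minus strand): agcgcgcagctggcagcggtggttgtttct
RPL22 (chr1:6199576-6199605, minus strand): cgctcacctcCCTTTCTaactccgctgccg
RPL15 (chr3:23916535-23916564, plus strand): tggggcctgctggaggagcttcacgcagtc
RPL13A (chr19:49487598-49487627, plus strand): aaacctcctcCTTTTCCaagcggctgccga
RPL3 (chr22:39319604-39319633, minus strand): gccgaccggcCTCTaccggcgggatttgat
RPS16 and RPL28 start with a run of 8 pyrimidines, RPL22 and RPL13A with 7 and RPL3 with 4, while RPS29 and RPL15 have none at the annotated start. Both ends of the recovery order thus held genes with and without the run. RPL15 has 3 RefSeq entries and the first is shown, as none of the 3 has a run.

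In the 300 bases around the start, 250 before and 50 after, CCGGAA, the core of an ETS-family site (GABPA), was found on either strand in 36 of the 62 genes (58.1%), against 20.1% of all 27305 entries and 36.8% of the other tested genes. The mitochondrial ribosomal protein genes held it in 61.5%. AAGATGGC, a YY1-type motif, was in 9.68%, against 3.52% of all entries, 7.18% of the other tested genes and 32.3% of the mitochondrial ribosomal protein genes. CACGTG, the E-box of MYC, was in 6.45%, against 8.77% of all entries and 13.2% of the other tested genes. TATAAA was in 8.06%, against 14.0% of all entries and 7.68% of the other tested genes. These are matches of letters in a window and not sites of binding.

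Within total RNA the 79 genes covered a wide range of levels, and TPM, which is scaled by length, allows them to be compared. In GFP cells RPL39, which lines the exit tunnel of the large subunit, was highest at 2041, 2189 and 1420 TPM, followed by RPS18 at 1506 ± 76.8 TPM (SD, n = 3) and RPL19 at 1472 ± 49.2 TPM, whose ranges did not exclude each other. The lowest were RPL3L, a muscle paralog of RPL3, at 0.442 ± 0.0665 TPM, RPS28 at 6.87 ± 2.14 TPM, RPS27L at 13.5 ± 1.98 TPM and RPL39L at 20.4 ± 0.643 TPM. The table lists a single transcript per gene. RPS28, RPL28 (24.6 ± 20.2 TPM) and RPL27A (33.0 ± 13.3 TPM) also encode core proteins of the ribosome, and their values are those of the listed transcript only.

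Together the 79 genes took 24.6% ± 2.15 (SD, n = 3) of the TPM of the listed genes in total RNA of GFP cells, 22.7% ± 1.70 in that of UPF1-1 cells and 24.1% ± 3.12 in that of UPF1-2 cells. In the IPs they took 6.74% ± 0.643 with UPF1-1 and 7.42% ± 0.933 with UPF1-2, with no overlap between any IP library and any total RNA library. These are bulk samples, in which a difference in all cells and a difference in some of them cannot be told apart. The large subunit went from 12.4% ± 0.802 to 4.10% ± 0.360 with UPF1-1, and the small subunit from 10.3% ± 0.904 to 2.64% ± 0.283. With UPF1-2 the values were 13.1% ± 1.31 to 4.48% ± 0.528 and 11% ± 1.81 to 2.95% ± 0.405.

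Of the whole TPM scale, in place of the listed genes, the 79 genes held 3.65% ± 0.168 in GFP, 3.56% ± 0.134 in UPF1-1 and 3.44% ± 0.411 in UPF1-2 total RNA, and 3.60% ± 0.530 and 3.97% ± 0.432 in the IPs. The sum over the 79 was lower in the IP than in total RNA in numbers 1 and 2 of UPF1-1 and higher in the other 4 pairs. The listed genes made up 14.6% to 15.8% of the scale, as group means, in total RNA and 54.2% and 54.6% in the IPs, and the median listed gene stood at 1.85, 1.94 and 1.97 TPM in the total RNA groups and 14.2 and 13.5 TPM in the IPs. Recovery is therefore given relative to the median gene, as the log2 difference of IP and total RNA with the median gene of each library placed at the same level.

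**Figure D1:**
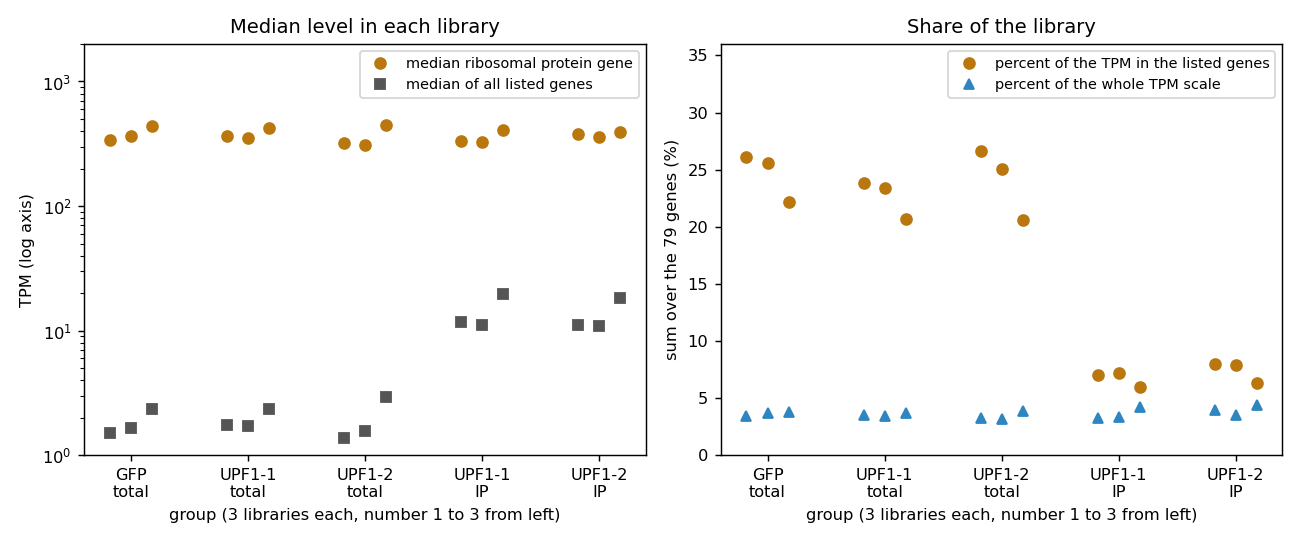
Left, median TPM of the 79 ribosomal protein genes (circles) and of all listed genes (squares) in each of the 15 libraries, on a log axis. Right, their summed TPM as a percent of the listed genes (circles) and of the whole scale (triangles): the first is 20.6% to 26.6% in the total RNA libraries and 6.01% to 7.98% in the IPs, while the second lies between 3.15% and 4.42% in all libraries.

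All 79 ribosomal protein mRNAs were recovered below the median gene with each UPF1 isoform. By limma with Benjamini-Hochberg adjustment over 11969 genes, 79 of 79 were lower in the UPF1-1 IP than in UPF1-1 total RNA, where 43.9% of all genes were lower and 74.7% were called in either direction. With UPF1-2 79 of 79 were lower, where 44.2% of all genes were lower and 75.7% were called. The median of the 79 was -2.43 on the log2(TPM + 0.5) scale with UPF1-1, 5.40-fold lower, and -2.27 with UPF1-2, 4.82-fold lower, while the median over all genes fitted was -0.16 and -0.15. The largest adjusted p of any of the 79 was 0.000241 with UPF1-1 and 8.17e-05 with UPF1-2, both for RPL22. RPL3L, below 1 TPM in total RNA, passed the filter of 1 TPM in 3 libraries only through the IPs and its call rests on values near the pseudocount, which leaves 78 of 78 others. No replicate number gave a difference above 0 for any of them, the highest being -0.44 and -0.82, also for RPL22.

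Most of the 79 lay in the lower tail of all genes. With UPF1-1 58 were among the lowest 5% of genes fitted and 76 among the lowest 10%. With UPF1-2 the counts were 54 and 72. The ranking is over 11969 genes, while 9325 passed the same filter in the fit of total RNA alone. Genes low in total RNA thus entered the ranking through the IPs. The median level in total RNA was 1.93 TPM for the other genes and 402 TPM for the members. A ranking over genes filtered by total RNA alone was not made. At least 4-fold lower recovery, a difference of -2 or less, was seen for 65 with UPF1-1 and 55 with UPF1-2. Members near that bound show its place among all genes fitted. RPL27A at -2.01 with UPF1-1 stood at percentile 5.51, and RPS27A at -1.99 with UPF1-2 at percentile 5.34. The value rests on the choice of scale: without equal medians the median gene was higher in the IPs by 2.40 and 2.38, and the members' median was 0.13 and 0.26. On that scale 30 of the 79 were called higher and 24 lower with UPF1-1, where 11464 of 11969 genes were higher and 150 lower. With UPF1-2 41 of the 79 were higher and 16 lower, where 11485 of all genes were higher and 128 lower. All 79 were again below the median of all genes with each isoform. That had to follow, as setting medians equal shifts all genes of a library alike. The authors' deposited ratios of IP to Input TPM are quotients of the same TPM values and so are no separate evidence. The members' median ratio was 0.979, 1.04 and 1.12 for numbers 1 to 3 of UPF1-1 and 1.28, 1.22 and 1.10 for UPF1-2. The medians of the other genes ran from 5.97 to 8.03 over both isoforms.

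**Figure D2:**
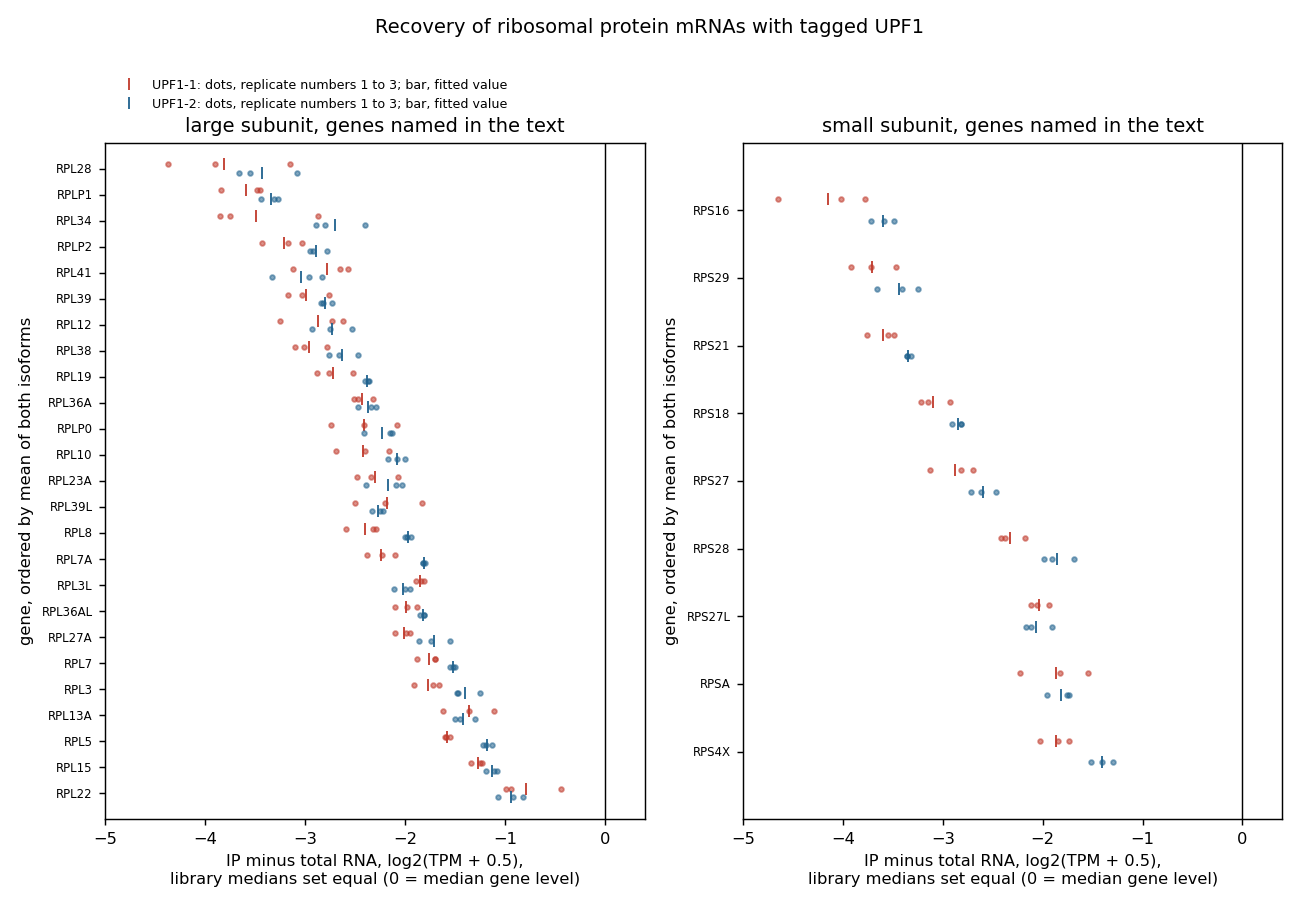
Recovery of the ribosomal protein mRNAs named in the text, as IP minus total RNA on the log2(TPM + 0.5) scale with library medians set equal, for the large and the small subunit, ordered by the mean of both isoforms. Dots are the 3 replicate numbers and bars the fitted values for UPF1-1 (red) and UPF1-2 (blue); all dots lie below 0, from RPS16 at -4.15 and -3.60 to RPL22 at -0.79 and -0.93.

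The poorest recovery of all was that of RPS16 (ENSG00000105193), a small subunit protein whose tail reaches the decoding site. Its level was 349, 329 and 586 TPM in UPF1-1 total RNA and 139, 106 and 167 TPM in the UPF1-1 IP, and 299, 263 and 657 TPM in UPF1-2 total RNA and 156, 131 and 272 TPM in the UPF1-2 IP. In each number of both isoforms the IP was lower even before scaling to the median gene. The fitted difference was -4.15 ± 0.15 (SE, limma adjusted p = 1.37e-07) with UPF1-1 and -3.60 ± 0.15 (adjusted p = 3.12e-07) with UPF1-2, 17.8-fold and 12.1-fold lower.

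RPL28 of the large subunit and RPS29 of the small subunit were also among the lowest. RPL28, which budding yeast lacks, had 15.2, 12.7 and 44.4 TPM in UPF1-1 total RNA and 5.23, 7.33 and 15.1 TPM in the IP, with differences of -3.81 ± 0.21 and -3.43 ± 0.21. For RPL28 the highest UPF1-1 IP library, number 3, stood above number 2 of total RNA, although the IP was lower within each number. RPS29, a zinc-binding protein and the shortest transcript of the set, had 885, 833 and 607 TPM in UPF1-1 total RNA and 365, 394 and 287 TPM in the IP, with differences of -3.71 ± 0.11 and -3.44 ± 0.11. RPS29 did not overlap between IP and total RNA with UPF1-1.

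At the other end stood 5 large subunit genes whose TPM was higher in the IPs than in total RNA, but by less than that of the median gene. RPL22, an RNA-binding protein of the large subunit that cells can do without, had 68.9, 68.1 and 76.3 TPM in UPF1-1 total RNA and 191, 187 and 405 TPM in the IP. In UPF1-2 total RNA it had 68.3, 66.4 and 112 TPM and in the IP 205, 199 and 347 TPM, so that total RNA and IP did not overlap with either isoform. Relative to the median gene the differences were -0.79 ± 0.11 (limma adjusted p = 0.000241) and -0.93 ± 0.11 (adjusted p = 8.17e-05), and RPL22 stood at percentile 25.8 and 21.8 of all genes. RPL15, altered in Diamond-Blackfan anaemia, followed with -1.27 ± 0.07 and -1.13 ± 0.07, and RPL5, which with RPL11 and the 5S RNA binds MDM2 when ribosome assembly fails, with -1.58 ± 0.07 and -1.18 ± 0.07. RPL13A, also a regulator of translation outside the ribosome, had -1.36 ± 0.10 and -1.42 ± 0.10, and RPL3, which lies at the peptidyl transferase centre, -1.77 ± 0.08 and -1.40 ± 0.08. Without equal medians the differences of these 5 genes changed sign, to between 0.80 for RPL3 and 1.77 for RPL22 with UPF1-1 and between 1.11 for RPL13A and 1.59 for RPL22 with UPF1-2.

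The subunits differed little. With UPF1-1 the median was -2.41 for the 48 large subunit genes and -2.57 for the 31 small subunit genes, and the large subunit stood higher by 0.22, 0.18 and 0.15 in numbers 1 to 3. With UPF1-2 the medians were -2.20 and -2.37, and the large subunit stood higher by 0.19, 0.19 and 0.01. By the mean of both isoforms the 5 highest genes were all of the large subunit. Genes share libraries and are not replicates, so the difference between subunits was not tested.

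The acidic stalk, which recruits elongation factors, was spread over this range. RPLP1 had 221, 202 and 469 TPM in UPF1-1 total RNA and 107, 96.7 and 235 TPM in the IP, a difference of -3.59 ± 0.09, and -3.34 ± 0.09 with UPF1-2. RPLP2 had -3.21 ± 0.09 and -2.89 ± 0.09. RPLP0, which anchors both to the ribosome, had 803, 724 and 778 TPM in UPF1-1 total RNA and 823, 897 and 835 TPM in the IP, a difference of -2.41 ± 0.12, and -2.23 ± 0.12 with UPF1-2. RPLP1 and RPLP0 did not overlap in any replicate number with either isoform. RPSA of the small subunit, also known as a laminin receptor, had -1.87 ± 0.12 and -1.82 ± 0.12. RPL12, which with RPL3 is known to limit its own output through a splice form degraded by nonsense-mediated decay, had -2.87 ± 0.13 and -2.73 ± 0.13.

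In 3 of 4 pairs the paralog was recovered somewhat better than its parent gene, the exception being RPL3L. RPS27 had 1103, 1121 and 1293 TPM in UPF1-1 total RNA and 850, 906 and 1061 TPM in the IP, a difference of -2.88 ± 0.10. Its paralog RPS27L, a p53 target, had 17.8, 17.5 and 13.4 TPM in UPF1-1 total RNA and 22.4, 24.0 and 23.4 TPM in the IP, a difference of -2.04 ± 0.08. With UPF1-2 the pair had -2.60 ± 0.10 and -2.06 ± 0.08. RPL36A had -2.43 ± 0.07 and -2.37 ± 0.07, and RPL36AL -1.99 ± 0.07 and -1.82 ± 0.07. RPL39 had -2.99 ± 0.09 and -2.80 ± 0.09, and RPL39L, known from testis, -2.18 ± 0.12 and -2.27 ± 0.12. RPL3L had -1.85 ± 0.13 and -2.02 ± 0.13 against -1.77 and -1.40 for RPL3, but at 0.284 to 0.943 TPM in UPF1-1 total RNA RPL3L was near the pseudocount. RPL10, whose paralog was not analysed here, had -2.42 ± 0.10 and -2.08 ± 0.10. The paralogs were not set against each other by a test. The 5′ ends of 2 of these pairs are shown because only the parent gene has a C and at least 4 more C or T from the annotated start.
RPS27 (chr1:153990752-153990781, plus strand): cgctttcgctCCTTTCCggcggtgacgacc
RPS27L (chr15:63157458-63157487, minus strand): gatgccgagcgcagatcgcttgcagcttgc
RPL36A (chrX:101391001-101391030, plus strand): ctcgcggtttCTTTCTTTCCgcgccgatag
RPL36AL (chr14:49620607-49620636, minus strand): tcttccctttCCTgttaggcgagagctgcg
The run is 7 pyrimidines in RPS27 and 10 in RPL36A, 3 in RPL36AL, and none in RPS27L. In RPL36AL the 10 bases before the annotated start are also all C or T. Its count thus rests on the annotated base, and the lack of a TOP-type start is not shown. Over all members the 45 genes with the start had median recoveries of -2.56 and -2.36 and the 17 without it -2.09 and -1.93. The 17 with no entry had -2.58 and -2.38. The class rests on the annotated start, so genes without the start are not shown to lack a TOP motif. Among the other tested genes, the 596 with the start had medians of -0.15 and -0.14 and the 7673 without it -0.09 and -0.07. The 17 other mRNAs known for a TOP motif, a list described further on, had lower medians of -1.04 and -0.71.

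Transcript length moved with recovery. An effective length relative to the median gene was taken from the deposited mean natural log of estimated counts and the TPM, for 8489 genes with a mean of at least 1 TPM in total RNA, 78 of the 79 among them. The median ribosomal protein transcript had 0.302 of the length of the median gene, with a range from 0.0461 for RPS29 to 2.04 for RPL27A. Across the 8489 genes Pearson's r of log length with recovery was 0.595 with UPF1-1 and 0.614 with UPF1-2 (Spearman's rho 0.534 and 0.553). Across the 78 members r was 0.441 and 0.457 (rho 0.454 and 0.451). These are descriptions across genes that share libraries, and length and TPM come from the same estimates.

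Other short genes were also recovered below the median gene, by less than the ribosomal protein mRNAs. The 3888 other genes between the 5th and 95th percentile of the members' lengths (0.103 to 0.978) had medians of -0.53 and -0.50, and 4.91% of them lay below the members' median with UPF1-1. The 809 other genes in the lowest decile of length (below 0.301) had medians of -1.73 and -1.76, and 26.5% lay below the members' median. Among genes of the members' lengths, the 903 in the top decile of level (15.1 TPM and above) had medians of -1.08 and -0.96. Of these, 10.5% lay below the members' median. The members had a median length of 0.302 and a median level of 402 TPM. These medians were 0.588 and 5.2 TPM for the 3888 genes and 0.185 and 4.9 TPM for the 809. For the 903 they were 0.458 and 31.4 TPM. None of these sets was thus matched to the members in both length and level. Some members departed from the relation with length: RPL28, at 0.587 of the median length, was among the lowest, and RPL27A at 2.04 had -2.01 and -1.71. What part length and level play in the recovery of these mRNAs was not tested.

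**Figure D3:**
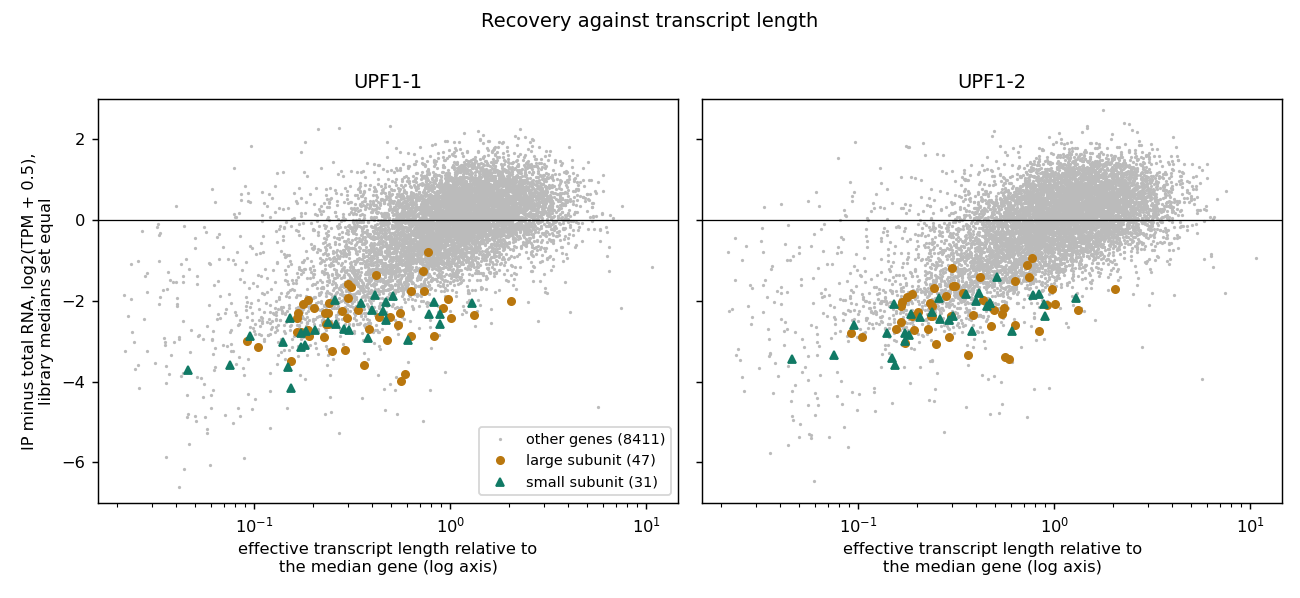
Recovery (IP minus total RNA, log2(TPM + 0.5), library medians set equal) against effective transcript length relative to the median gene, on a log axis, for 8411 other genes (grey), 47 large subunit genes (circles) and 31 small subunit genes (triangles). Longer transcripts lie higher in both panels, with r of 0.595 and 0.614, and the ribosomal protein genes lie in the lower part of the cloud at their lengths.

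Other gene groups were set beside these. The 74 mitochondrial ribosomal protein genes, with a median relative length of 0.416, had medians of -0.91 and -0.76; 53 were lower and 10 higher with UPF1-1, and 51 and 15 with UPF1-2. The 71 oxidative phosphorylation genes, at a length of 0.357, had -2.06 and -1.91; 63 were lower and 2 higher, and 62 and 4. Of 17 other mRNAs known for a TOP motif 14 were lower and 2 higher with UPF1-1, and 12 and 3 with UPF1-2, with medians of -1.04 and -0.71. In that list EEF1B2, a subunit of the elongation factor that reloads EEF1A1, had -2.62 and -2.18, TPT1 -2.35 and -2.50 and BTF3 -1.82 and -1.91, while EIF4B, an initiation factor, was higher at 0.66 and 0.78. Of 6 ribosome components or paralogs outside the symbol rule 4 were lower and 1 higher with each isoform. FAU, which makes a ribosomal protein fused to a relative of ubiquitin, had -2.60 and -2.18, RPL26L1 had -2.14 and -1.85 and GNB2L1 (RACK1) -1.10 and -0.49, whereas RPL7L1, an assembly factor, was higher at 1.43 and 1.48. All 27 ribosomal protein genes of a textbook list of snoRNA hosts were lower, with medians of -2.57 and -2.37, close to those of all 79.

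Recovery followed the same order with both isoforms. Across 78 members the values for UPF1-1 and UPF1-2 had r = 0.964 (rho 0.964), given as a description since both were measured against total RNA in 1 fit. The difference between the isoforms leaned the same way for most genes: 72 of the 79 were lower with UPF1-1, with a median of -0.24 against -0.04 over all genes, of which 6624 of 11969 were below 0. The medians of the subunits were -0.24 each.

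Few of these differences passed the test. By limma 5 of the 79 were lower with UPF1-1 and 0 higher, where 6.27% of all genes were lower, 4.43% higher and 10.7% called in all, so the share of members called lower (6.33%) was close to the background. RPS28, which lies near the exit of the mRNA channel, had -2.42, -2.17 and -2.38 with UPF1-1 for numbers 1 to 3 and -1.98, -1.69 and -1.91 with UPF1-2, a difference of -0.46 ± 0.12 (SE, limma adjusted p = 0.0496). RPS4X, the X-linked copy of the S4 protein, had -1.85, -1.74 and -2.02 against -1.30, -1.41 and -1.52, a difference of -0.46 ± 0.12 (adjusted p = 0.0442). RPL8, a core protein of the peptidyl transferase centre, had -2.30, -2.32 and -2.59 against -2.00, -1.94 and -1.98, a difference of -0.43 ± 0.11 (adjusted p = 0.0464). RPL7A had a difference of -0.43 ± 0.11 (adjusted p = 0.0447) and RPL5 of -0.40 ± 0.09 (adjusted p = 0.0388). In all 5 the recoveries with the isoforms did not overlap. These genes were picked by the test of that same difference, so this adds no support. Overlap was not counted over the other genes.

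RPL34 had a larger difference of -0.79 ± 0.26, with 87.8, 90.6 and 161 TPM in the UPF1-1 IP and 207, 169 and 233 TPM in the UPF1-2 IP, but did not pass (limma adjusted p = 0.0843, 95% interval -1.38 to -0.21). It was named after its values were seen. The interval for a gene in the middle of the order, RPLP0, ran from -0.58 to 0.21. Without the replicate block, and without number 1 or number 2, 0 of the 79 were called, and without number 3 there were 4, of which 2 were among the 5. At an unadjusted p below 0.05 there were 32 of the 79 with the block and 4 without it. The share of all genes at that unadjusted threshold was not counted, so these counts have no background.

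In total RNA the ribosomal protein mRNAs moved little. Total RNA of UPF1-1 cells was compared with that of GFP cells over 9325 genes, 78 of the 79 among them, RPL3L being below the filter. By limma 3 of the 78 rose and 5 fell, where 8.38% of all genes rose, 7.79% fell and 16.2% were called in all. The members called were 3.85% and 6.41%, below the background in each direction. The median of the 78 was -0.14, 1.10-fold lower, against -0.01 over all genes, and 71 of the 78 were below 0 against 4984 of 9325 genes.

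The risers were RPS28 and RPS21 of the small subunit and RPL39L. RPS28 had 5.59, 5.67 and 9.34 TPM in GFP, 8.78, 7.78 and 13.3 TPM in UPF1-1 and 4.84, 4.95 and 9.51 TPM in UPF1-2 total RNA. Within each number UPF1-1 was highest. It rose by 0.42 ± 0.06 (SE, limma adjusted p = 0.00368), 1.34-fold. RPS21, a small protein of the 40S body, had 324, 334 and 440 TPM in GFP and 466, 472 and 571 TPM in UPF1-1 total RNA, without overlap, and rose by 0.38 ± 0.08 (adjusted p = 0.0150). RPL39L had 19.9, 20.3 and 21.2 TPM in GFP and 26.0, 22.4 and 28.8 TPM in UPF1-1 total RNA, also without overlap. It rose by 0.23 ± 0.07 (limma adjusted p = 0.0437). Of the 79 genes, 2 lay wholly above GFP in UPF1-1 total RNA and 4 wholly below. Such overlap was not counted over all genes.

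The genes that fell were all of the large subunit. RPL34 had 256, 271 and 200.2 TPM in GFP and 233, 233 and 163 TPM in UPF1-1 total RNA, lower within each number, and fell by 0.30 ± 0.06 (limma adjusted p = 0.0120). RPL38, known for its part in translating homeobox mRNAs, had 153, 158 and 222 TPM in GFP and 147, 134 and 193 TPM in UPF1-1 total RNA and fell by 0.25 ± 0.06 (adjusted p = 0.0228). RPL22 fell by 0.24 ± 0.06 (adjusted p = 0.0282), RPL7 by 0.22 ± 0.06 (adjusted p = 0.0394) and RPL23A, which lies at the tunnel exit where nascent chains emerge, by 0.17 ± 0.05 (adjusted p = 0.0493). None of these 8 calls held without the replicate block or without number 2; without number 1, 2 rose and 1 fell, all among the 8, and without number 3, 2 rose and 4 fell, 5 of them among the 8. Without equal medians none fell and the median was -0.05.

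Against the same GFP libraries, UPF1-2 total RNA gave no call among the 78 genes by limma, where 0.375% of all genes were called, 0.279% higher and 0.0965% lower. At an unadjusted p below 0.05 there were 18, and 0 without the replicate block, a count not made over all genes. The median was -0.12 and 74 of the 78 were below 0, against -0.02 and 5231 of 9325 over all genes. RPS21 was the highest at 0.18 ± 0.08 (adjusted p = 0.420, 95% interval -0.004 to 0.354) and RPS4X, at -0.29 ± 0.07 (adjusted p = 0.139, interval -0.44 to -0.14), among the lowest; both were named after their values were seen. The comparisons with GFP share its libraries, so their leaning the same way is not independent.

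Compared directly, total RNA of the 2 UPF1 lines differed for 3 of the 78 genes by limma, where 9.51% of all genes were called, 5.49% higher and 4.02% lower in UPF1-1. RPS28 was higher in UPF1-1 by 0.56 ± 0.06 (SE, adjusted p = 0.00311), with 0.51, 0.48 and 0.69 for numbers 1 to 3. RPL39L was higher by 0.26 ± 0.07 (adjusted p = 0.0430). RPL22 was lower, at -0.23 ± 0.06 (adjusted p = 0.0482), with -0.28, -0.09 and -0.32 for the numbers. The median was -0.01, with 37 of the 78 above 0 and 41 below, and it changed sign under some settings. Without the replicate block, or without number 2, 0 of the 78 were called. RPS28 held its call without number 1 (adjusted p = 0.0136) and without number 3 (adjusted p = 0.0166). RPL39L lost its call without any 1 of the numbers, and so did RPL22.

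**Figure D4:**
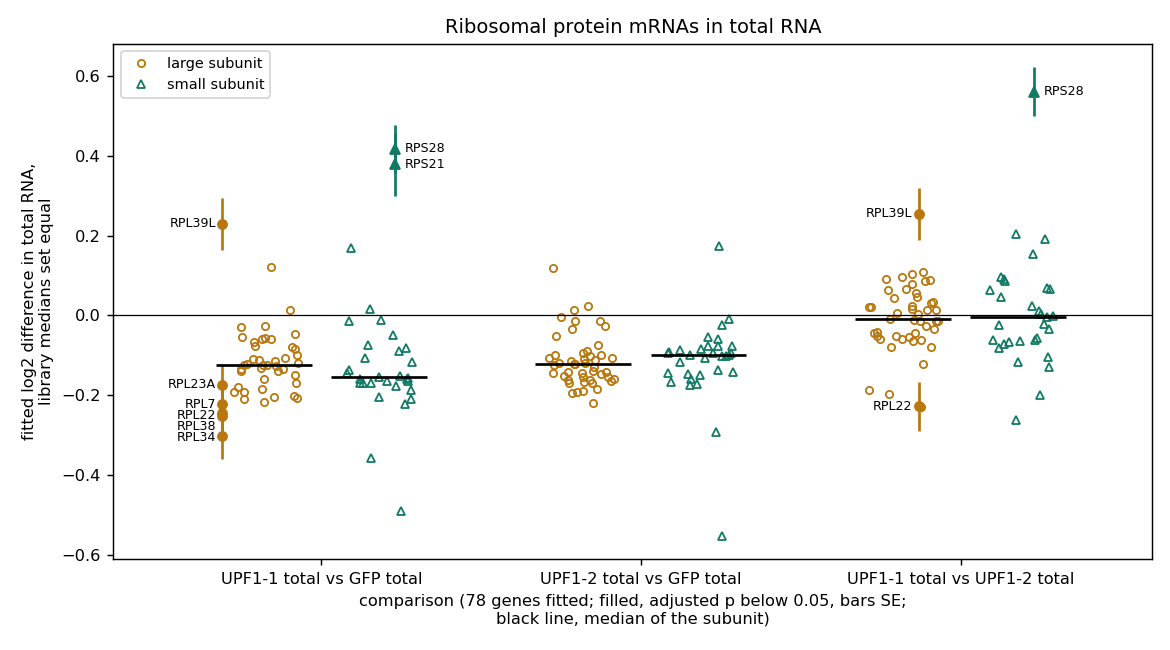
Fitted log2 differences of the 78 ribosomal protein genes in total RNA in the 3 comparisons, large subunit as circles and small subunit as triangles, with filled symbols and SE bars for genes with a limma adjusted p below 0.05 and black lines at the subunit medians. Medians lie at -0.13 and -0.15 for UPF1-1 against GFP, -0.12 and -0.10 for UPF1-2 against GFP, and near 0 between the UPF1 lines.

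The authors' deposited table gives sleuth q-values for the 3 comparisons of total RNA. None of the 79 genes had a q-value below 0.05 there: the lowest in the authors' deposited table was 1 against GFP for each isoform and 0.851 between the isoforms. Over all genes the authors' deposited table had 45, 4 and 17 below that level.

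Within each group, replicate number 3 stood further from the others than these did from each other. Numbers 1 and 2 differed by a median of 0.03 (GFP) to 0.18 (UPF1-2 total RNA) on the log2 scale, and number 3 differed from their mean by a median size of 0.39 to 0.56. Relative to the median gene, number 3 was lower in each group fitted in 53 of the 79 genes, in 7 it was higher in each, and in 19 the sign varied. RPL3L, fitted in 2 groups only, is among the 19. These signs were not counted over all genes, which also shifted in number 3. In GFP the shift had a median of -0.34 over the members and -0.03 over all genes. The 5th and 95th percentiles of all genes were -0.85 and 0.895. RPL39 was lower in number 3, with 1926, 1876 and 1491 TPM in UPF1-2 total RNA and 2041, 2189 and 1420 TPM in GFP. RPL28 was the reverse, with 11.7, 11.5 and 44.6 TPM in UPF1-2 total RNA and 13.2, 12.7 and 47.9 TPM in GFP. RPL3, RPL8 and RPLP1 were likewise higher in number 3 in all 5 groups, and relative to the median gene RPS29 and RPL41 were lower. These genes were chosen by the size of the difference after it was seen. The replicate block takes out the part of the shift that the groups share. Nothing in the labels says what number 3 marks.

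**Figure D5:**
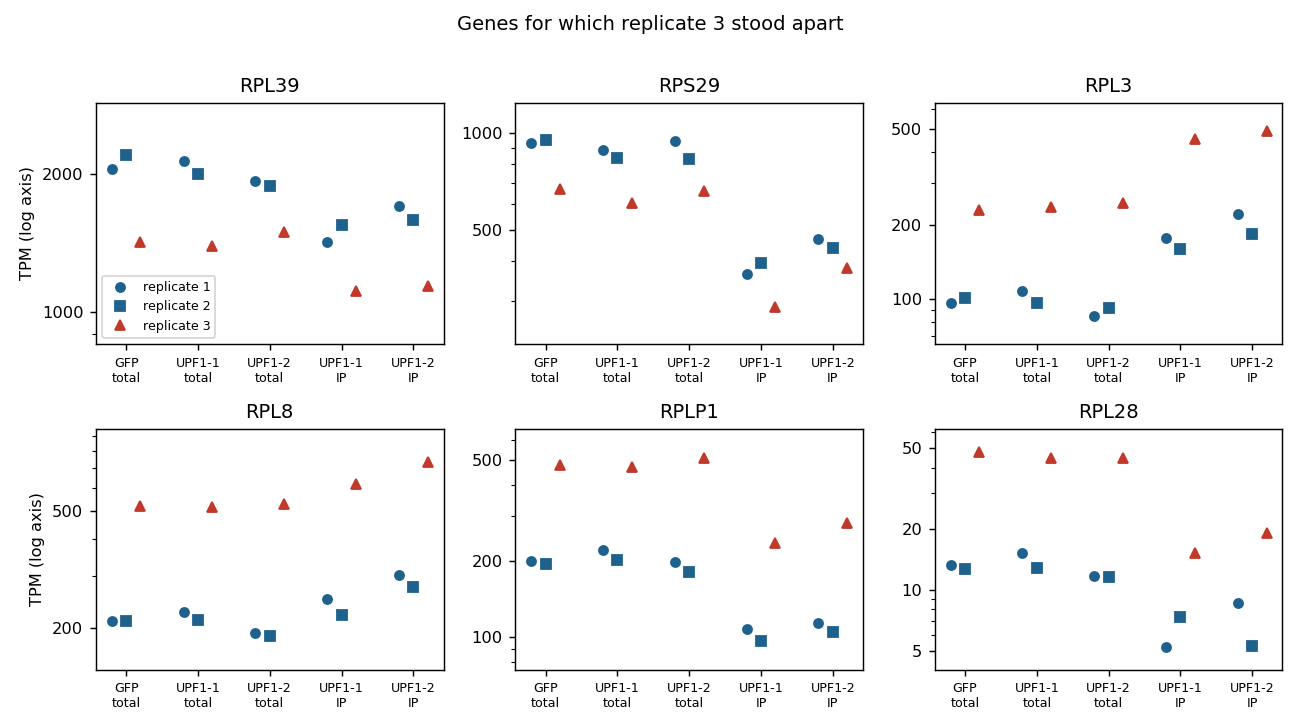
TPM, on a log axis, of 6 ribosomal protein genes in all 15 libraries, with replicates 1 and 2 in blue and replicate 3 in red. Replicate 3 lies below the others for RPL39 and RPS29 and above them for RPL3, RPL8, RPLP1 and RPL28 in all 5 groups.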

How the data were processed

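Members and gene lists were chosen with earlier results of these data known. Per the file headers the deposited table gives TPM per library for 12261 genes, 1 Ensembl transcript each, with the authors' ratios of IP to Input, log2 fold changes, sleuth p-values and q-values, and natural log effects and mean estimated counts. The submitters' processing notes name cutadapt, kallisto, sleuth and hg19, without versions. The extraction and library steps, per the labels' protocols, were column isolation, ribosomal RNA depletion and a TruSeq kit. Read totals are not given in the sources used here, so no counting error is stated.

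Values entered as log2(TPM + 0.5). A gene was fitted if 3 or more of the libraries in the fit had 1 TPM or more. Library medians were set equal, and limma 3.58.1 (R 4.3.3) was fitted with a trend. Total RNA used 9 libraries and 9325 genes with the replicate number as a block; IPs used 12 libraries and 11969 genes with the isoform and replicate number together as a block. Tests were 2-sided, with Benjamini-Hochberg adjustment over all genes fitted and a threshold of 0.05. The deposited ratios pair IP and Input within a number. Deviations from group means correlated at 0.70 to 0.95 (9 same-number pairs, total RNA) and 0.57 to 0.92 (18 pairs, IP fit). Numbers 1 and 2 correlated nearly as well across groups, at 0.64 to 0.80 and 0.58 to 0.74, and each against number 3 at -0.72 or lower and -0.68 or lower. Genes named: in total RNA those past the threshold (up to 8 a direction), the 5 lowest and 5 highest in recovery, up to 5 a direction between isoforms, the paralogs, stalk genes, RPL12 and RPSA, and up to 3 a direction from each list. The lists were ribosome components outside the rule, other TOP mRNAs, regulators, snoRNA hosts, mitochondrial ribosomal proteins, oxidative phosphorylation and nuclear RNAs. Some genes that fall under this rule are not reported here. Alternatives changed the block, centring, pseudocount, filter or replicates.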

Additional observations from a re-analysis of the deposited data

Results flagged for a closer look

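Ribosomal protein genes whose effect differed between the 2 UPF1 isoforms by a test of the difference itself are listed here with limma's values. In total RNA, UPF1-1 minus UPF1-2, these were RPS28 at 0.56, RPL39L at 0.26 and RPL22 at -0.23. In recovery, UPF1-1 minus UPF1-2, these were RPS28 at -0.46, RPS4X at -0.46, RPL8 at -0.43, RPL7A at -0.43 and RPL5 at -0.40. RPS28 passed in both, higher in UPF1-1 total RNA and lower in UPF1-1 recovery; the recovery is measured against the same total RNA libraries, so these values are not independent. With 3 libraries a group, single libraries far from the others were not searched for.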

How the results depend on the processing

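The recovery of the ribosomal protein mRNAs below the median gene kept its direction and its calls under every setting that kept library medians or upper quartiles equal, with all 79 fitted members lower, or all 78 without replicate 2, where RPL3L was not fitted. Their medians with UPF1-1 and UPF1-2 were -2.64 and -2.49 at a pseudocount of 0.1 TPM and -2.22 and -2.05 at 1 TPM, and -2.39 with UPF1-2 at equal upper quartiles. Without equal medians these reversed to 0.13 and 0.26, with or without the replicate block. With the block UPF1-1 had 30 higher and 24 lower, against 11464 and 150 of all 11969 genes. UPF1-2 had 41 higher and 16 lower, against 11485 and 128 of all genes. Without block and centring UPF1-1 had 14 and 13, against 10953 and 101 of all genes. UPF1-2 then had 27 and 10, against 11030 and 93. The reversed genes had 1.77 and 1.59 (RPL22), 1.29 and 1.40 (RPL15), 0.98 and 1.35 (RPL5), 1.20 and 1.11 (RPL13A) and 0.80 and 1.13 (RPL3).

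The smaller differences depended on the settings. Without the replicate block 0 members were called higher or lower in total RNA or between isoforms in recovery, with medians equal or not; the block changed no other call at equal medians. With the block but no equal medians, UPF1-1 against GFP had 0 lower and a median of -0.046, the UPF1 lines 1 higher, 0 lower and a median of 0.054 (-0.046 and 0.054 also without the block), and recovery between isoforms 0 lower. Equal upper quartiles gave 13 lower in UPF1-1 against GFP, and 1 higher and 2 lower between the UPF1 lines. A pseudocount of 0.1 TPM left 1 higher between them; 1 TPM gave 10 lower against GFP, 0 lower and a median of 0.005 between the lines and 0 lower in recovery. With no filter 3 were lower against GFP, and between the lines 0 were lower with a median of 0.02.

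Leaving out replicate 1, 2 or 3 gave 0 to 2 higher and 0 to 4 lower in UPF1-1 against GFP, 0 to 1 higher and 0 to 1 lower between the UPF1 lines with a median of -0.093 to 0.066, and 0 to 4 lower in recovery between isoforms. The cause of these differences was not tested. Over all genes the counts between isoforms fell from 887 and 1280 to 0 and 0 without the block. Only 3 libraries a group and 1 listed transcript a gene limit the precision; how reads were shared with the many processed pseudogenes of these genes was not tested.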

Other observations

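Of 19 regulators of TOP mRNA translation and of ribosomal protein gene transcription, 4 fell in UPF1-1 against GFP total RNA by limma and 0 rose, with a median of -0.04 over the list, where 7.79% of all genes fell and 8.38% rose. Without the replicate block 5 of 9325 genes fell in this comparison. GABPA, an ETS factor, fell by 0.51, LARP4, which binds poly(A), by 0.41 and EIF4EBP2, a repressor of the cap-binding protein, by 0.38. The fourth, MYC, named after its values were seen, fell by 0.26. The mTOR gene was recovered below the median gene in the IPs, at -0.66 with UPF1-1 and -0.29 with UPF1-2, as were TSC2 at -0.85 and -0.32 and LARP4 at -0.72 and -1.06. GABPA (1.33 and 1.01), CNBP (0.65 and 0.53) and RPTOR (0.42 and 0.89) were recovered above it. UPF1-1 had 7 of the list higher and 9 lower, and UPF1-2 had 7 higher and 8 lower; over all genes the shares were 30.8% and 43.9%, and 31.5% and 44.2%, so these counts are near the background.

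The nuclear RNAs MALAT1, NEAT1 and RN7SK were all recovered below the median gene with each isoform. MALAT1 had -2.49 and -3.15, NEAT1 -2.25 and -2.63 and RN7SK -5.89 and -5.61, the last below every ribosomal protein gene. Between isoforms MALAT1 recovery was higher with UPF1-1 by 0.66 (limma adjusted p = 0.0191), where 4.43% of all genes were higher. NEAT1 and RN7SK were not called. In recovery between isoforms EEF2, an elongation factor with a TOP motif, was lower with UPF1-1 by 0.71 and GNB2L1 by 0.61, and 3 of 17 other TOP mRNAs and 1 of 6 components outside the rule were called, all lower, where 6.27% of all genes were lower and 10.7% called. Without the replicate block 0 of 11969 genes were called in this comparison by limma.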
